A study of Mus musculus with 57 samples.

Results

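The p53 gene *Trp53* and 9 genes whose promoters or introns p53 is known to bind were followed in the hearts of mice given doxorubicin (Doxo), with or without nicotinamide mononucleotide (NMN). The 10 genes were *Trp53*, *Mdm2*, *Ccng1*, *Btg2*, *Phlda3*, *Eda2r*, *Sesn1*, *Sesn2*, *Trp53inp1* and *Zmat3*. They were taken by symbol from the count tables, which list 25416 genes for the acute study and 54658 for the chronic study. All 10 were found in both tables and all 10 passed the filter on low counts in both.

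p53 is a transcription factor that is kept at a low level by MDM2, a ubiquitin ligase that p53 itself switches on, so that the pair forms a feedback loop. DNA damage and other stresses stabilise the p53 protein, largely without more *Trp53* mRNA, and the protein then binds response elements near its target genes and raises their transcription. Doxorubicin, an anthracycline that poisons topoisomerase II and intercalates into DNA, is a classic inducer of p53, and p53 has long been studied in the toxicity of this drug to the heart. NMN is a precursor of NAD+, the cofactor that SIRT1, a deacetylase acting on p53, consumes.

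The study asked whether NMN changes the response of the heart to Doxo. All mice were wild-type C57BL6/J males and the RNA came from heart tissue. In the acute study, mice were obtained at 9 weeks of age and Doxo mice had 1 intraperitoneal injection of 20 mg/kg. Doxo-NMN mice had the same injection and 180 mg/kg of NMN daily by intraperitoneal injection from 5 days before it. Ctrl mice had saline, and hearts were taken 5 days after Doxo (14 Ctrl, 13 Doxo and 13 Doxo-NMN hearts). In the chronic study, mice were obtained at 12 weeks and injected at 14 to 16 weeks. Doxo mice had 5 intraperitoneal injections of 4 mg/kg, 20 mg/kg in total, and Doxo-NMN mice drank NMN at 500 mg/kg daily from 5 days before the first injection to day 60. Ctrl mice had phosphate-buffered saline, and hearts were taken at day 60 (5 Ctrl, 6 Doxo and 6 Doxo-NMN hearts). No group had NMN alone, so a change in Doxo-NMN hearts cannot be told apart from an effect of NMN without Doxo. Mice that died before collection gave no heart, and the studies were sequenced at different sites, so study and site cannot be told apart.

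Total counts per heart ran from 32409622 to 52102850 in the acute study and from 17769886 to 23862287 in the chronic study. Levels are given as CPM, counts scaled to the library total after normalisation by the trimmed mean of M-values (TMM). The lowest count of any of the 10 genes in any heart was 31, so none was near the limit of detection, which was set at 3 counts. The summed level of 6 cardiomyocyte markers was 54180 to 69436 CPM in acute Ctrl hearts (median 61351), 26785 to 71095 in Doxo hearts (median 50166) and 34691 to 78508 in Doxo-NMN hearts (median 67532), and that of 5 markers of proliferating cells had medians of 7.04, 2.44 and 1.91 CPM in the same order. Some acute hearts held atrial tissue: *Myl4*, an atrial myosin light chain, reached 100 CPM or more in 8 of 14 Ctrl, 5 of 13 Doxo and 4 of 13 Doxo-NMN hearts. The summed level of 5 neutrophil markers was 1.59 to 4.99 CPM in acute Ctrl, 2.69 to 259 in Doxo and 4.66 to 28.8 in Doxo-NMN hearts, although the median count of *Ly6g* was 3 or fewer in each of these groups. The sum of 4 red cell markers was 397 to 3913 CPM in Ctrl, 0.954 to 305 in Doxo and 0.209 to 2.48 in Doxo-NMN hearts. The part of these markers in the results was not tested, and in bulk tissue fewer cells of a type and less RNA per cell cannot be told apart. Acute Doxo replicate 6 lay among the Ctrl hearts for 8 of the 10 genes, and chronic Doxo replicate 2 and chronic Ctrl replicate 1 stood apart from their groups, so values without them are given beside the results they touch.

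Promoter sequence from RefSeq (GRCm38.p6) was held for 8 of the 10 genes, in 9 windows of 250 bases before to 50 bases after a transcription start. p53 binds pairs of a decamer made of 3 purines, a C, A or T at each of the next positions, a G and 3 pyrimidines, which reads alike on both strands. An exact decamer was present in windows of *Ccng1*, *Mdm2*, *Sesn1* and *Trp53*, which is 50% of the 8 genes, and in windows of 9.55% of 27025 genes in the whole table. The 8 genes include *Trp53* itself. Of 33 further p53 targets with such windows, 27.3% held an exact decamer. The closest match to a full element, a pair of decamers at most 13 bases apart, was at *Ccng1*, with 1 mismatch. 1.09% of all windows came that close. A full element with 2 or fewer mismatches was found for 25% of the 8 genes and 11.5% of all genes. With 3 or fewer, the shares were 37.5% and 48.5%. Both promoters below belong to the genes that fell most and rose most of the 10 after acute Doxo, and capitals mark the element.
Ccng1 (chr11:40755287-40755536, minus strand, the 250 bases before the start): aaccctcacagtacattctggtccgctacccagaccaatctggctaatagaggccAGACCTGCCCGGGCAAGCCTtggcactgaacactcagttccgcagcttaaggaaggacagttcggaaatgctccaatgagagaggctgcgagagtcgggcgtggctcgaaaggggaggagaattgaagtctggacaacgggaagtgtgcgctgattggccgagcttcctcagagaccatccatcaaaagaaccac
Btg2 (chr1:134079156-134079405, minus strand, the 250 bases before the start): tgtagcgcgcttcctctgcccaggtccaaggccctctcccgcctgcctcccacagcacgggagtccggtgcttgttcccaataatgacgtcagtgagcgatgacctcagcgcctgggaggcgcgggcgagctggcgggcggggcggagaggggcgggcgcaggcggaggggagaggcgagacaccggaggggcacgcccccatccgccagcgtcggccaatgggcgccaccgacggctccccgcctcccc
The *Btg2* stretch holds no exact decamer and no element in capitals. Whether such matches bear on the change of a gene was not tested. The nearest match in the *Btg2* window, with 4 mismatches, begins 24 bases after the start and so lies outside the stretch shown. The nearest matches of the other genes with an exact decamer are shown because they show how far each departs from the full element, with the bases between the decamers in lower case.
Sesn1 (chr10:41887253-41887275, plus strand): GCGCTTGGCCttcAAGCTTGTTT
Trp53 (chr11:69580284-69580303, plus strand): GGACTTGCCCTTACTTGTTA
Mdm2 (chr10:117710923-117710944, minus strand): GAACTTGCCTagCGACCATTGC
*Sesn1* had 2 mismatches (10.1% of all windows had 2 or fewer), *Trp53* had 3 (45.1% had 3 or fewer) and *Mdm2* had 4 (89.3% had 4 or fewer). A match is a description of these letters and not a measured binding site, and p53 elements in introns lie outside these windows and were not searched.

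On a scale per transcript length (CPM per kilobase of exon), *Ccng1* was the most abundant of the 10 genes in every group. In acute Ctrl hearts its level was 275 ± 28.5 CPM per kilobase (SD, n = 14), followed by *Sesn1* at 42.3 ± 6.15, *Btg2* at 14.6 ± 3.73 and *Mdm2* at 10.9 ± 0.749. *Phlda3* stood at 6.87 ± 1.503, *Trp53* at 3.23 ± 0.366 and *Trp53inp1* at 2.83 ± 0.506, and *Sesn2*, *Zmat3* and *Eda2r* came last at 1.16, 0.895 and 0.556. Each gene exceeded the next in the order in all 14 Ctrl hearts, except that *Btg2* exceeded *Mdm2*, and *Trp53* exceeded *Trp53inp1*, in 11 of 14. After acute Doxo *Btg2* reached 120 ± 80.3 CPM per kilobase beside *Ccng1* at 141 ± 59.9 (SD, n = 13), with *Ccng1* the higher in 7 of 13 hearts. *Trp53inp1* stood at 16.1 ± 7.80 beside *Mdm2* at 11.5 ± 1.47 and was the higher in 8 of 13, so neither pair of neighbours was separated. In Doxo-NMN hearts the order at the top was again *Ccng1*, *Sesn1*, *Btg2* and *Mdm2*, at 233, 55.2, 22.8 and 12.3 CPM per kilobase.

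**Figure D1:**
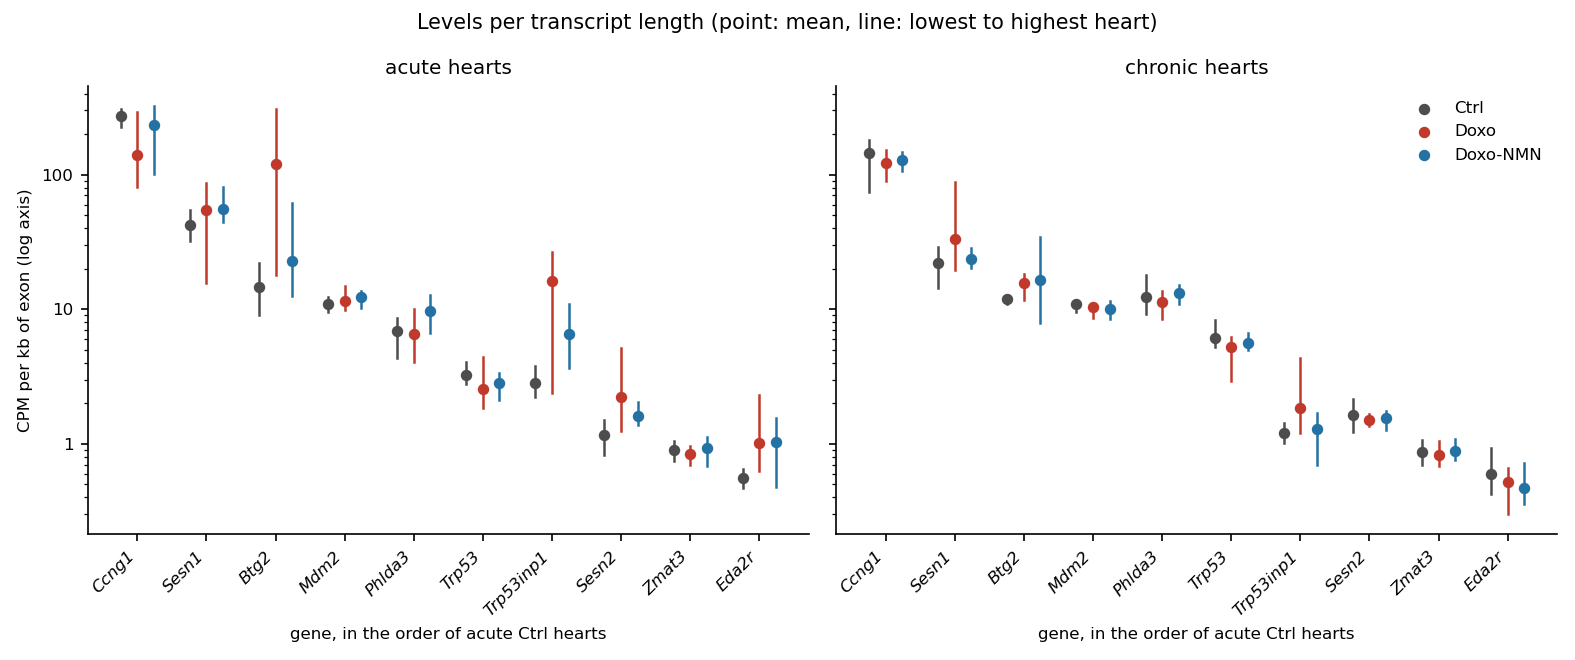
Mean level of each of the 10 genes per kilobase of exon in the 6 groups (log axis, CPM per kilobase, points are means and lines run from the lowest to the highest heart). *Ccng1* is highest in every group, and *Btg2* and *Trp53inp1* stand higher in the acute Doxo group than in the other groups.

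In acute Doxo hearts the response of these genes was split. *Btg2* and *Trp53inp1* rose more than 5-fold, *Eda2r* and *Sesn2* rose by less than 2-fold, *Ccng1* fell, and *Mdm2*, the gene of the feedback loop, stood at 1.05-fold of Ctrl. A gene was called in the acute study when its adjusted p (Benjamini-Hochberg over all genes tested, edgeR's quasi-likelihood test) was under 0.05 and its fold change at least 1.5. That rule called 5 of the 10, namely 4 higher and 1 lower, beside 30.1% of the 14240 genes tested (14.7% higher and 15.4% lower). The median log2 change of the 10 genes was 0.21, against -0.0016 over all genes tested. The 10 genes were chosen with earlier results of these data known. Their shares and medians beside those of all genes, here and below, are therefore descriptions and test no excess.

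*Trp53* and its inhibitor came first. *Trp53* (chr11:69580359-69591873, GRCm38) had a lowest, median and highest level of 11.3, 12.96 and 16.3 CPM in Ctrl hearts and 7.44, 9.47 and 17.7 CPM in Doxo hearts. Of the Doxo hearts, 10 of 13 lay below every Ctrl heart and replicate 6 lay above every one. The *Trp53* mRNA was 0.790-fold of Ctrl (log2 change -0.34, SE 0.0968, adjusted p = 0.00221 by edgeR's quasi-likelihood test), which is past the p threshold but under the fold limit. *Mdm2* (chr10:117688875-117710758) ran from 48.2 to 62.3 CPM in Ctrl hearts, with a median of 55.5, and from 50.3 to 75.5 CPM in Doxo hearts, with a median of 59.5. The groups overlapped nearly throughout, with 3 of 13 Doxo hearts above every Ctrl heart. Its log2 change was 0.07 (SE 0.0542, adjusted p = 0.253 by edgeR's quasi-likelihood test).

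Cell cycle regulators moved in opposite directions. *Btg2* (chr1:134075170-134079120) encodes an antiproliferative factor that recruits the CCR4-NOT deadenylase to mRNA. Its lowest, median and highest levels were 24.9, 41.1 and 60.8 CPM in Ctrl hearts and 49.5, 299 and 846 CPM in Doxo hearts. Replicates 6 and 7 of the Doxo group, at 49.5 and 54.9 CPM, lay inside the Ctrl range and the other 11 lay at 183 CPM or more. *Btg2* rose 8.19-fold (log2 change 3.03, SE 0.298, adjusted p = 1.48e-10 by edgeR's quasi-likelihood test). *Ccng1* (chr11:40748552-40755311) encodes cyclin G1, which recruits a phosphatase to MDM2. It was measured at 793, 1005 and 1088 CPM (lowest, median and highest) in Ctrl hearts and at 283, 425 and 1019 CPM in Doxo hearts. In 12 of 13 Doxo hearts the level was below every Ctrl heart, the exception being replicate 6. *Ccng1* was 0.512-fold of Ctrl (log2 change -0.97, SE 0.150, adjusted p = 6.32e-07 by edgeR's quasi-likelihood test).

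Genes of cell death and autophagy included the next largest rise. *Trp53inp1* (chr4:11156431-11174379) encodes a stress protein that acts in apoptosis and autophagy. It lay between 14.4 and 24.5 CPM in Ctrl hearts, with a median of 16.99, and between 15.4 and 172 CPM in Doxo hearts, with a median of 114. All Doxo hearts but replicate 6 exceeded every Ctrl heart. The rise was 5.68-fold (log2 change 2.51, SE 0.228, adjusted p = 4.07e-11 by edgeR's quasi-likelihood test). *Eda2r* (chrX:97333840-97377216), a receptor of the tumour necrosis factor family for ectodysplasin A2, had a lowest, median and highest level of 2.746, 3.29 and 3.84 CPM in Ctrl hearts and 3.67, 4.99 and 13.6 CPM in Doxo hearts. Here 12 of 13 Doxo hearts, replicate 6 among them, were above every Ctrl heart, and replicates 4 and 5 stood highest at 9.13 and 13.6 CPM. *Eda2r* rose 1.81-fold (log2 change 0.86, SE 0.157, adjusted p = 9.50e-06 by edgeR's quasi-likelihood test). *Phlda3* (chr1:135766119-135769136), an inhibitor of AKT signalling, ranged from 6.79 to 13.5 CPM in Ctrl and from 6.27 to 15.7 CPM in Doxo hearts. The ranges overlapped and the log2 change was -0.08 (SE 0.120, adjusted p = 0.575 by edgeR's quasi-likelihood test).

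The sestrins, which dampen mTORC1 signalling and act against oxidative stress, did not move alike. *Sesn2* (chr4:132492032-132510501) had a lowest, median and highest level of 2.87, 4.07 and 5.22 CPM in Ctrl hearts and 4.34, 6.07 and 17.97 CPM in Doxo hearts. Above every Ctrl heart lay 11 of 13 Doxo hearts, with replicates 4 and 5 again highest at 13.99 and 17.97 CPM. *Sesn2* rose 1.91-fold (log2 change 0.93, SE 0.150, adjusted p = 1.20e-06 by edgeR's quasi-likelihood test). *Sesn1* (chr10:41809935-41908424) ran from 127 to 219 CPM in Ctrl hearts and from 62.6 to 343 CPM in Doxo hearts, which put 7 of 13 Doxo hearts above and 2 below every Ctrl heart. Its 1.28-fold difference (log2 change 0.36, SE 0.152, adjusted p = 0.0346 by edgeR's quasi-likelihood test) was under the fold limit. *Zmat3* (chr3:32334792-32366014), an RNA-binding zinc finger protein that regulates splicing and mRNA stability, had medians of 10.04 CPM in Ctrl and 9.16 CPM in Doxo hearts. Its log2 change was -0.09 (SE 0.0659, adjusted p = 0.225 by edgeR's quasi-likelihood test).

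Without Doxo replicate 6, the same 5 genes were called, with log2 changes of 3.13 for *Btg2*, 2.61 for *Trp53inp1*, 0.98 for *Sesn2*, 0.89 for *Eda2r* and -1.10 for *Ccng1*. *Trp53* was then at -0.43 (adjusted p = 1.76e-05 by edgeR's quasi-likelihood test), still under the fold limit. Among hearts with 100 CPM or more of *Myl4*, *Sesn1* was called as well, at a log2 change of 0.73 (adjusted p = 4.96e-05 by edgeR's quasi-likelihood test). In hearts with less *Myl4* it was 0.03 (adjusted p = 0.922 by edgeR's quasi-likelihood test). The adjusted p of *Sesn1* over all hearts also rose above 0.05 in 7 of 40 fits that each left out 1 heart, the most without Doxo replicate 2 (0.28, adjusted p = 0.0931 by edgeR's quasi-likelihood test), and with a replicate block (0.28, adjusted p = 0.167). By edgeR's quasi-likelihood test the adjusted p was also 0.0602 without the low-count filter and 0.0666 with only the 2 groups fitted. By limma-voom it was 9.66e-04 (log2 change 0.50) and by DESeq2 0.0260 (0.36).

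**Figure D2:**
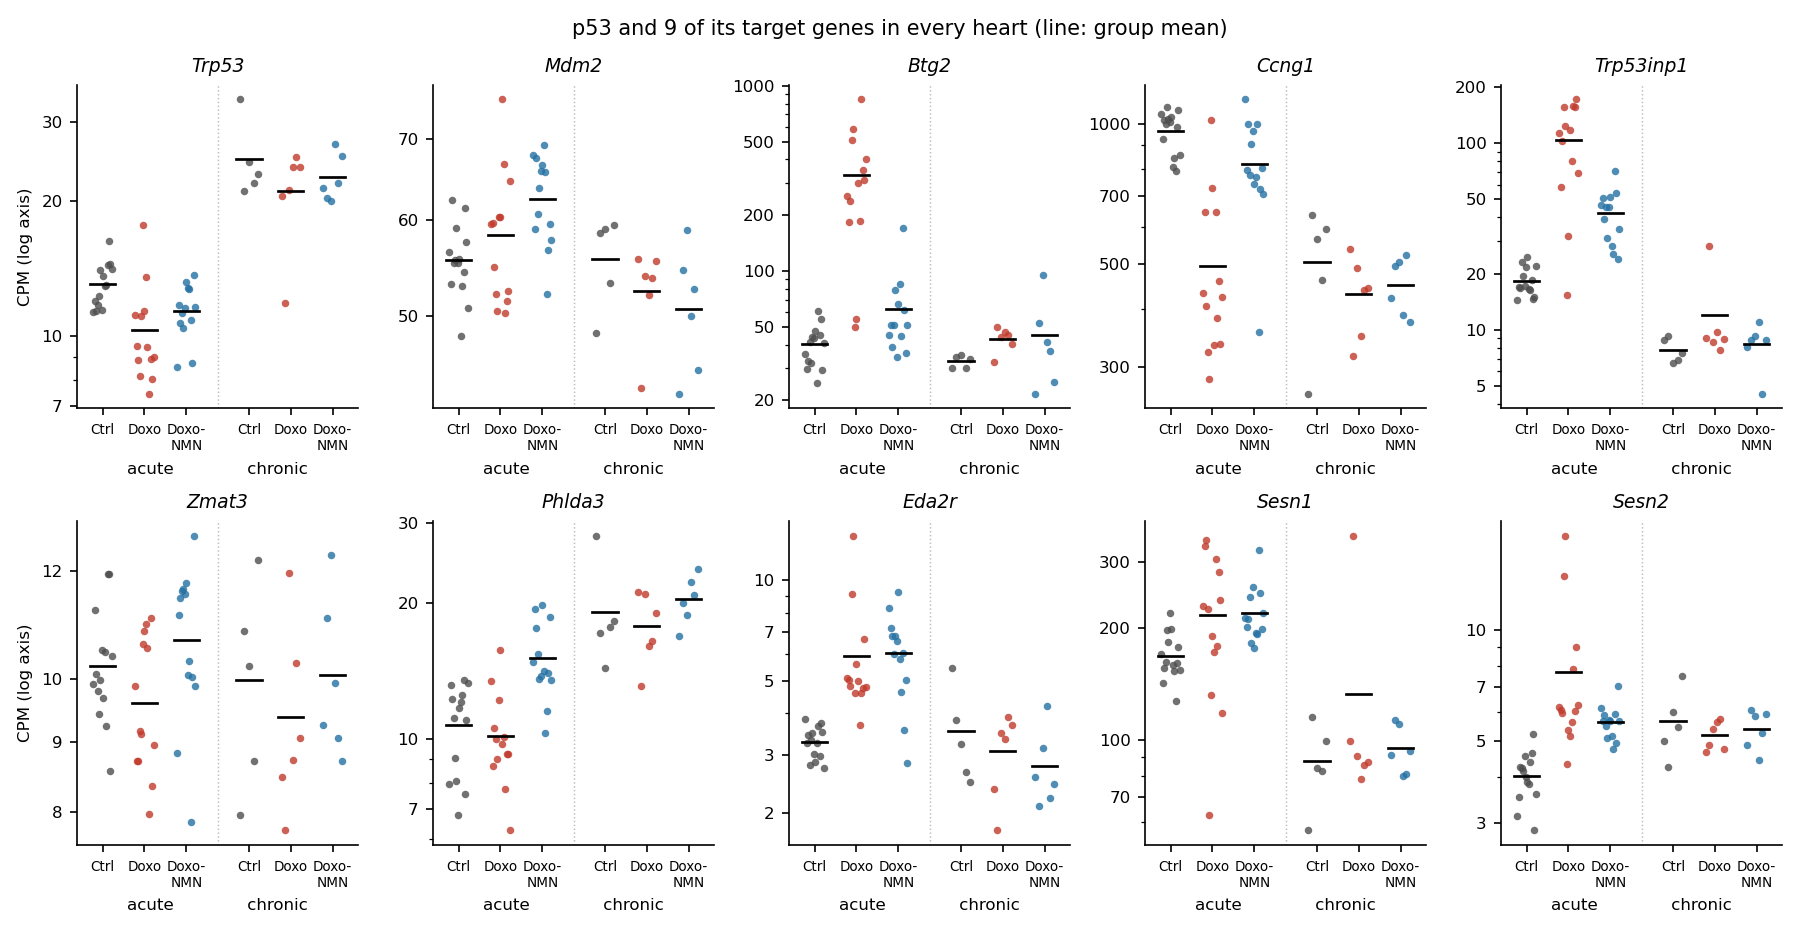
Level of each of the 10 genes in every heart (log axis, TMM-normalised CPM), by study and group, with 1 point a heart and a line at each group mean. In the acute study 11 of 13 Doxo hearts lie above every Ctrl heart for *Btg2*, and 12 of 13 lie below every Ctrl heart for *Ccng1*, while the chronic groups overlap.

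Doxo-NMN hearts were then set against Doxo hearts. *Btg2* and *Trp53inp1* were lower and *Ccng1* was higher in Doxo-NMN than in Doxo, whereas *Eda2r* differed by less than its SE. The rule called 3 of the 10, namely 1 higher and 2 lower, beside 17.1% of all genes tested (8.17% higher and 8.88% lower). The median log2 change of the 10 genes was 0.06, against -0.000827 over all genes.

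*Btg2* had a lowest, median and highest level of 34.2, 50.98 and 170 CPM in Doxo-NMN hearts, against 49.5, 299 and 846 CPM in Doxo hearts. Replicate 10 was the highest Doxo-NMN heart and the only one above 100 CPM. The level was 0.191-fold of Doxo (log2 change -2.39, SE 0.299, adjusted p = 3.45e-07 by edgeR's quasi-likelihood test). *Trp53inp1* lay between 23.8 and 70.9 CPM, with a median of 45.3, which overlaps the lowest Doxo hearts. It was 0.404-fold of Doxo (log2 change -1.31, SE 0.225, adjusted p = 1.47e-05 by edgeR's quasi-likelihood test). *Ccng1* was measured at 357, 795 and 1130 CPM (lowest, median and highest), and again replicate 10 was nearest to the Doxo group. *Ccng1* was 1.66-fold of Doxo (log2 change 0.73, SE 0.151, adjusted p = 1.42e-04 by edgeR's quasi-likelihood test).

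*Phlda3*, which did not differ between Doxo and Ctrl, ran from 10.3 to 19.8 CPM in Doxo-NMN hearts, with a median of 14.1. It was 1.49-fold of Doxo, just under the fold limit (log2 change 0.57, SE 0.122, adjusted p = 2.01e-04 by edgeR's quasi-likelihood test), and passed the limit in 7 of 40 fits that each left out 1 heart, at most 0.64 without Doxo replicate 7. *Sesn2* ran from 4.77 to 7.07 CPM and was 0.735-fold of Doxo (log2 change -0.44, SE 0.151, adjusted p = 0.0130 by edgeR's quasi-likelihood test), also under the limit. *Eda2r* had a median of 6.06 CPM in Doxo-NMN and 4.99 CPM in Doxo hearts, with a log2 change of 0.03 (SE 0.158, adjusted p = 0.895 by edgeR's quasi-likelihood test). Over all alternative fits the log2 change of *Eda2r* ran from -0.18 to 0.42, so its sign depended on the fit. The lowest adjusted p of these fits, by edgeR, DESeq2 or limma-voom, was 0.0205. For *Sesn1*, *Mdm2*, *Trp53* and *Zmat3* the log2 changes were 0.02, 0.10, 0.14 and 0.15 and the adjusted p-values by edgeR's quasi-likelihood test ran from 0.0530 to 0.909. Without Doxo replicate 6, *Trp53* was 0.23 and *Zmat3* 0.17 (adjusted p = 0.0182 and 0.0364 by edgeR's quasi-likelihood test), both under the fold limit. In the same fit *Btg2*, *Trp53inp1* and *Ccng1* were still called at -2.49, -1.41 and 0.87, and *Phlda3* was called at 0.60.

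Doxo-NMN hearts were last compared with Ctrl hearts. *Eda2r* and *Trp53inp1* were higher in Doxo-NMN and were called, which is 2 of the 10 genes, both higher, beside 7.11% of all genes tested (3.31% higher and 3.79% lower). The median log2 change of the 10 genes was 0.44, against 0.0065 over all genes. *Trp53inp1* exceeded every Ctrl heart in 12 of 13 Doxo-NMN hearts and was 2.30-fold of Ctrl (log2 change 1.1997, SE 0.220, adjusted p = 1.23e-04 by edgeR's quasi-likelihood test). *Eda2r* ran from 2.83 to 9.23 CPM, with 11 of 13 Doxo-NMN hearts above every Ctrl heart. It was 1.85-fold of Ctrl (log2 change 0.89, SE 0.156, adjusted p = 7.39e-05 by edgeR's quasi-likelihood test). Among hearts with under 100 CPM of *Myl4* the *Eda2r* difference was 0.65 on the log2 scale and was no longer called (adjusted p = 0.109 by edgeR's quasi-likelihood test).

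*Phlda3* (1.41-fold), *Sesn2* (1.401-fold) and *Mdm2* (1.12-fold) were higher than Ctrl at adjusted p-values of 0.00220, 0.0141 and 0.0190 by edgeR's quasi-likelihood test, all under the fold limit. Above every Ctrl heart lay 11 of 13 Doxo-NMN hearts for *Phlda3*, 9 for *Sesn2* and 7 for *Mdm2*. *Btg2* was 1.56-fold of Ctrl and missed the p threshold (log2 change 0.64, SE 0.280, adjusted p = 0.0846 by edgeR's quasi-likelihood test), with 5 of 13 hearts above every Ctrl heart. For *Ccng1* the log2 change was -0.23 (adjusted p = 0.245 by edgeR's quasi-likelihood test), with 6 of 13 hearts below every Ctrl heart. *Sesn1*, *Trp53* and *Zmat3* had log2 changes of 0.38, -0.20 and 0.06 (adjusted p-values of 0.0566, 0.121 and 0.507 by edgeR's quasi-likelihood test).

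The 3 acute comparisons share hearts, so their values are set side by side and were not tested against each other. Of the log2 difference between Doxo and Ctrl, the part absent in Doxo-NMN hearts was 78.8% for *Btg2*, 75.7% for *Ccng1*, 52.1% for *Trp53inp1* and 47.7% for *Sesn2*. For *Eda2r* it was -3.25%. Without Doxo replicate 6 these shares were 79.5%, 78.7%, 53.9%, 50.4% and -0.172%.

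**Figure D3:**
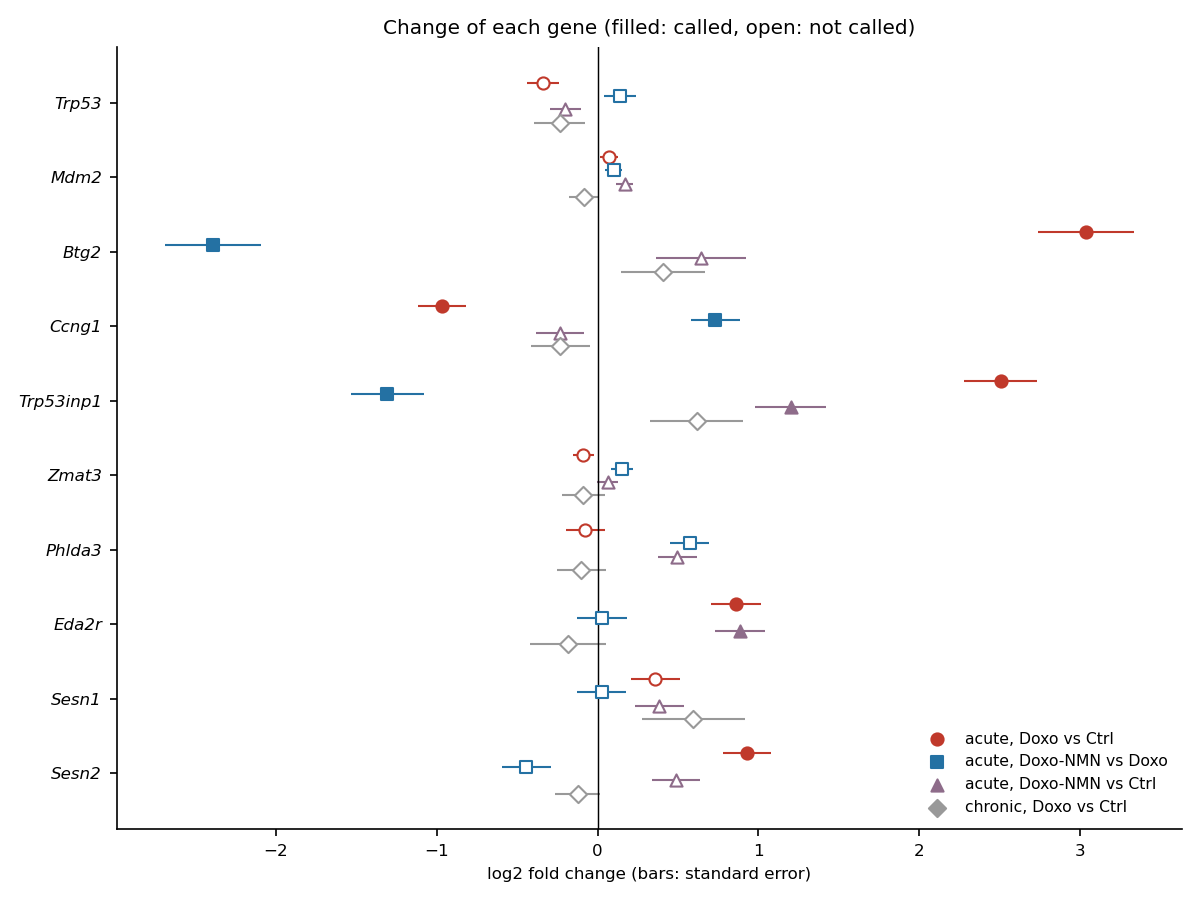
Log2 fold change of each of the 10 genes in the 3 acute comparisons and in chronic Doxo vs. Ctrl (bars are SE from edgeR's quasi-likelihood fit, filled symbols are called). In the acute study *Btg2* reads 3.03 for Doxo vs. Ctrl, -2.39 for Doxo-NMN vs. Doxo and 0.64 for Doxo-NMN vs. Ctrl, while *Eda2r* reads 0.86, 0.03 and 0.89.

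In the chronic study, 60 days on, none of the 10 genes was called in any comparison. The rule there was an adjusted p under 0.05 with no fold limit. It called 0.0602% of the 14960 genes tested for Doxo vs. Ctrl (9 genes), 0% for Doxo-NMN vs. Doxo and 0.0401% for Doxo-NMN vs. Ctrl (6 genes), by edgeR's quasi-likelihood test. At an unadjusted p under 0.05 the counts over all genes were 1174 (7.85%), 441 (2.95%) and 707 (4.73%), and over the 10 genes 1, 0 and 0. By DESeq2 and by limma-voom none of the 10 genes was called in these comparisons either.

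*Trp53inp1* was the gene below an unadjusted p of 0.05. Its level in the 5 chronic Ctrl hearts was 8.82, 9.20, 6.61, 6.91 and 7.47 CPM, and in the Doxo hearts the lowest, median and highest levels were 7.82, 8.94 and 28.2 CPM. Replicate 2 of the Doxo group held the highest value and the other 5 lay between 7.82 and 9.66 CPM, within or just above the Ctrl range. The log2 change was 0.62 (SE 0.290, p = 0.0465, adjusted p = 0.629 by edgeR's quasi-likelihood test), and 0.17 without replicate 2. *Sesn1* behaved alike: Ctrl hearts read 57.1, 115, 84.1, 82.3 and 98.97 CPM, Doxo replicate 2 read 353 CPM and the other 5 Doxo hearts 78.5 to 99.1 CPM. Its log2 change of 0.59 (SE 0.321, adjusted p = 0.667 by edgeR's quasi-likelihood test) became 0.01 without replicate 2. That heart also held the lowest *Trp53* (11.8 CPM), *Mdm2* (43.7 CPM), *Ccng1* (317 CPM), *Phlda3* (13.1 CPM), *Eda2r* (1.78 CPM) and *Zmat3* (7.75 CPM) of the Doxo group. It held the highest *Btg2* of that group (49.7 CPM).

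*Btg2* was measured at 30.0, 34.1, 34.9, 29.8 and 33.3 CPM in the chronic Ctrl hearts and at a lowest, median and highest level of 32.2, 44.5 and 49.7 CPM in Doxo hearts. In 5 of 6 Doxo hearts it was above every Ctrl heart, and the log2 change was 0.41 (SE 0.261, adjusted p = 0.7101 by edgeR's quasi-likelihood test). In Doxo-NMN hearts *Btg2* spread from 21.7 to 94.7 CPM, with 4 of 6 hearts above and 2 below every Ctrl heart. *Ccng1* read 263, 637, 565, 463 and 595 CPM in Ctrl hearts and 317 to 537 CPM in Doxo hearts, a log2 change of -0.23 (SE 0.183, adjusted p = 0.762 by edgeR's quasi-likelihood test). The other 6 genes differed by -0.24 to -0.09 on the log2 scale, all with overlapping groups, and their adjusted p-values by edgeR's quasi-likelihood test ran from 0.716 to 0.892. Without Doxo replicate 2, *Trp53* went from -0.24 to -0.11 and the other 5 of these genes lay between -0.10 (*Sesn2*) and -0.024 (*Phlda3*), while *Ccng1* was -0.16 and *Btg2* 0.36. Without Ctrl replicate 1, which held the lowest *Ccng1* of its group, *Ccng1* was -0.40 (adjusted p = 0.506 by edgeR's quasi-likelihood test), *Trp53* -0.10, *Phlda3* 0.079 and *Eda2r* 0.021, so the sign of *Phlda3* and *Eda2r* turned. For Doxo-NMN vs. Doxo the log2 changes ran from -0.51 (*Trp53inp1*) to 0.20 (*Phlda3*), and for Doxo-NMN vs. Ctrl from -0.34 (*Eda2r*) to 0.48 (*Btg2*), with adjusted p-values of 0.999 by edgeR's quasi-likelihood test throughout. Without Doxo replicate 2 the changes against Doxo ran from -0.28 (*Eda2r*) to 0.12 (*Phlda3*), with *Trp53inp1* at -0.070 and *Sesn1* going from -0.48 to 0.10. Without Ctrl replicate 1, the change of Doxo-NMN against Ctrl was -0.14 for *Eda2r*, -0.33 for *Ccng1*, 0.27 for *Phlda3* and 0.45 for *Btg2*. None of the 10 genes was called without either heart.

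**Figure D4:**
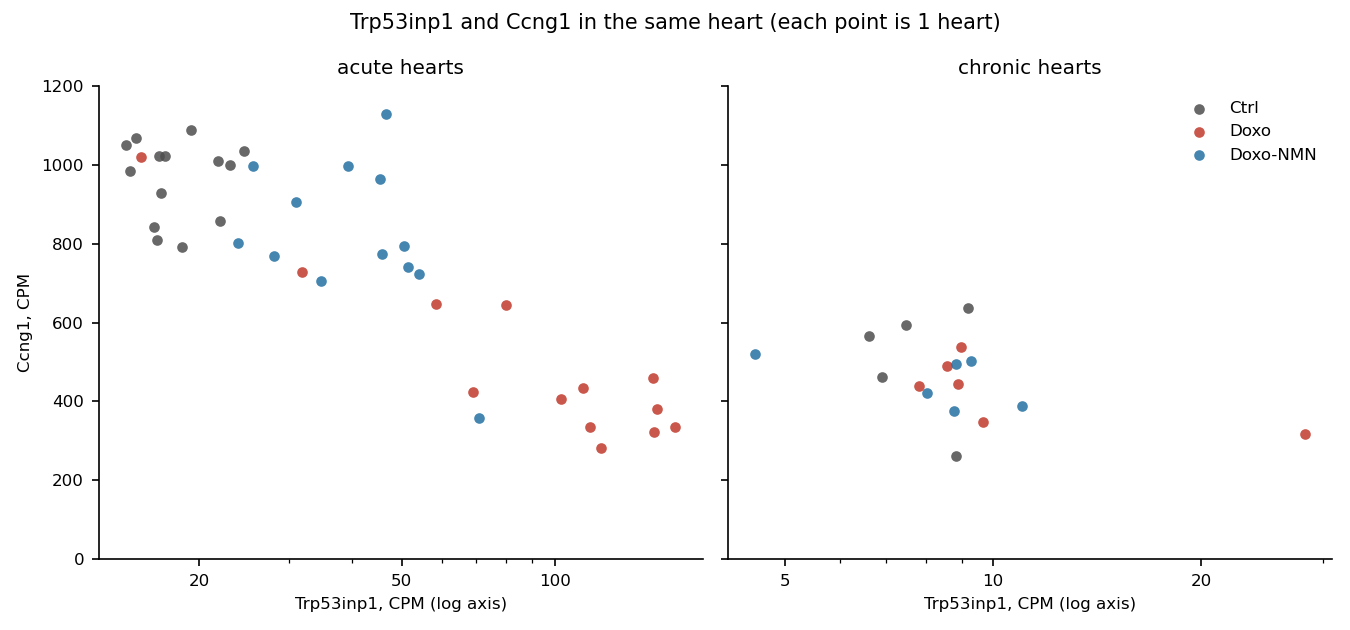
*Trp53inp1* against *Ccng1* in every heart (TMM-normalised CPM, log axis for *Trp53inp1* and linear axis for *Ccng1*), with acute and chronic hearts in separate panels coloured by group. Most acute Doxo hearts lie at high *Trp53inp1* and low *Ccng1*, apart from replicate 6 at 15.4 and 1019 CPM, and chronic Doxo replicate 2 lies apart at 28.2 and 317 CPM.

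Whether the effect of Doxo differed between the studies was tested as an interaction over both tables. The acute effect was the larger for *Btg2*, *Trp53inp1*, *Sesn2* and *Eda2r*, by 2.62 (SE 0.475), 1.88 (SE 0.446), 1.05 (SE 0.296) and 1.04 (SE 0.289) on the log2 scale. Their adjusted p-values by edgeR's quasi-likelihood test were 0.00188, 0.00638, 0.0148 and 0.0137. That makes 4 of the 10 genes at an adjusted p under 0.05, beside 19.3% of the 14965 genes tested (11% with the acute effect above the chronic effect). *Ccng1* missed the threshold at -0.74 (SE 0.279, adjusted p = 0.0568 by edgeR's quasi-likelihood test) and passed it without acute Doxo replicate 6 (-0.87, adjusted p = 0.00628) or without chronic Doxo replicate 2 (-0.81, adjusted p = 0.0335), and likewise without acute Doxo replicate 7 (-0.80) or chronic Ctrl replicate 2 (-0.84). *Eda2r* passed without chronic Ctrl replicate 1 (0.83, adjusted p = 0.0477 by edgeR's quasi-likelihood test) but not with a replicate block (0.98, adjusted p = 0.0630 by edgeR's quasi-likelihood test). The other 5 genes differed by -0.25 to 0.15, with adjusted p-values of 0.294 to 0.995. Dose schedule, age, time after Doxo, mouse supplier, diet, laboratory and sequencing site all differ between the studies and cannot be told apart.

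Other genes of the pathway were taken as lists: 40 further p53 targets, 27 regulators and relatives of p53, and 19 paralogs of the 10 genes. The lists too were chosen with earlier results of these data known, so their shares beside all genes are descriptions. In acute Doxo hearts 16 of the 40 further targets were called higher and 1 lower (42.5%, beside 30.1% of all genes tested), with a median log2 change of 0.51 against -0.0016 over all genes. *Cdkn1a*, the cyclin-dependent kinase inhibitor p21 and the best known p53 target, had a lowest, median and highest level of 47.8, 62.8 and 77.5 CPM in Ctrl and 56.4, 192 and 307 CPM in Doxo hearts. It rose 2.90-fold (log2 change 1.54, SE 0.165, adjusted p = 7.16e-10 by edgeR's quasi-likelihood test). Of the apoptosis genes, *Pmaip1* (NOXA) and *Tnfrsf10b* (a TRAIL receptor) were higher by 2.10 and 1.95 on the log2 scale. *Pmaip1* was at low levels, with medians of 0.270 CPM in Ctrl and 1.31 CPM in Doxo hearts. *Tnfrsf10b* had medians of 2.33 CPM in Ctrl and 6.06 CPM in Doxo hearts and spread widely in Doxo, with a highest heart of 26.1 CPM. *Bax* was higher by 0.39 (adjusted p = 2.03e-06 by edgeR's quasi-likelihood test), under the fold limit, and *Bbc3* (PUMA) differed by 0.02. *Gdf15*, a secreted stress cytokine, had medians of 1.82 CPM in Ctrl and 1.90 CPM in Doxo hearts and was not called (log2 change 0.73, adjusted p = 0.116 by edgeR's quasi-likelihood test). In Doxo-NMN vs. Doxo 11 of the 40 were called lower and 1 higher (30%, beside 17.1% of all genes), with log2 changes of -1.24 for *Cdkn1a*, -1.60 for *Pmaip1* and -1.81 for *Tnfrsf10b*. *Ddit4*, an mTORC1 inhibitor, was 1 of the 11, with a log2 change of -0.59. Its call there was lost in 21 of 40 fits that each left out 1 heart. Between Doxo and Ctrl hearts *Ddit4* had been called higher, by 1.48. In Doxo-NMN vs. Ctrl 6 of the 40 were called higher and none lower (15%, beside 7.11% of all genes). Among them were *Ddit4* at 0.89 and *Gdf15* at 1.11. *Gdf15* was no longer called without Doxo-NMN replicate 8 (0.74, adjusted p = 0.171 by edgeR's quasi-likelihood test) and in 13 of 40 such fits in all.

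Of the regulators and relatives 25 were tested in the acute study, and 3 were called higher and 1 lower in Doxo hearts (16%, beside 30.1% of all genes), where the median log2 change was 0.24. *Trp63*, the p53 relative of epithelia, was higher by 2.11 on the log2 scale at low levels, with medians of 0.600 CPM in Ctrl and 2.69 CPM in Doxo hearts. *Sirt1*, the NAD+-dependent deacetylase, was higher by 0.97 and *Ppp1r13l*, an inhibitor of p53, by 0.63 (0.58, under the fold limit, without Doxo replicate 9). *Chek2*, a kinase that phosphorylates p53 after DNA breaks, fell by 1.72 (median 2.61 CPM in Ctrl and 0.520 CPM in Doxo hearts). *Mdm4*, the partner of MDM2, was higher by 0.24 and not called. In Doxo-NMN vs. Doxo 2 were lower (*Trp63* by -1.25 and *Sirt1* by -0.78) and 1 was higher (*Chek2* by 0.82), which is 12% beside 17.1% of all genes. In Doxo-NMN vs. Ctrl *Trp63* was called higher at 0.86 and *Chek2* lower at -0.90, which is 8% beside 7.11%. Without Doxo-NMN replicate 10, *Trp63* was no longer called (0.74, adjusted p = 0.0605 by edgeR's quasi-likelihood test).

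Of 15 paralogs tested, 5 were called higher and none lower in acute Doxo hearts (33.3%, beside 30.1% of all genes), with a median log2 change of 0.19. Relatives of *Btg2* were among them, with log2 changes of 1.08 for *Btg1*, 1.03 for *Btg3* and 0.63 for *Tob1*, as was *Trp63*. The fifth was *Ccni*, a relative of *Ccng1* named here after its values were seen, at 0.61 (1.52-fold, adjusted p = 1.86e-08 by edgeR's quasi-likelihood test). The call of *Tob1* was lost in 2 of 40 fits that each left out 1 heart, among them that without Doxo replicate 10 (0.55, under the fold limit). Of the others, *Sesn3* differed by -0.30, *Ccng2* by -0.06 and *Trp53inp2* by -0.50, none of them called. In Doxo-NMN vs. Doxo 4 paralogs were lower (*Btg1* -1.13, *Btg3* -0.86, *Tob1* -0.81 and *Trp63*) and none higher (26.7%, beside 17.1% of all genes), and in Doxo-NMN vs. Ctrl *Trp63* alone was called (6.67%, beside 7.11%). The size of the *Btg1* rise rested on few hearts. Its median was 32.5 CPM in Doxo against 25.7 CPM in Ctrl, and its highest Doxo heart held 169 CPM. Its call in Doxo vs. Ctrl held in all 40 fits that each left out 1 heart. Without acute Doxo replicate 4 or replicate 10 the paralogs called in Doxo vs. Ctrl were 3 instead of 5.

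In the chronic study 37 further targets, 25 regulators and 14 paralogs were tested, and none was called in any comparison by edgeR's quasi-likelihood test. At an unadjusted p under 0.05 for Doxo vs. Ctrl were 6, 2 and 1 of them, beside 7.85% of all genes. *Cdkn1a* spread widest in the Doxo group, at a lowest, median and highest level of 15.4, 23.7 and 117 CPM, against 15.4 to 17.97 CPM in Ctrl hearts. Its log2 change was 1.14 (SE 0.402, p = 0.0102, adjusted p = 0.548 by edgeR's quasi-likelihood test), and 0.37 without Doxo replicate 2, the highest heart. The interaction between studies passed for 10 of 40 further targets, 6 of 25 regulators and 2 of 16 paralogs tested, beside 19.3% of all genes. The further targets were 17 without acute Doxo replicate 6, acute Doxo replicate 7 or chronic Doxo replicate 2. The regulators were 3 without chronic Ctrl replicate 1 or chronic Doxo replicate 1 and 10 without chronic Doxo replicate 2, and the paralogs were 5 and 4 without acute Doxo replicate 6 and 7 and 1 without chronic Ctrl replicate 2. For *Cdkn1a* it did not pass (0.38, SE 0.424, adjusted p = 0.531 by edgeR's quasi-likelihood test).

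**Figure D5:**
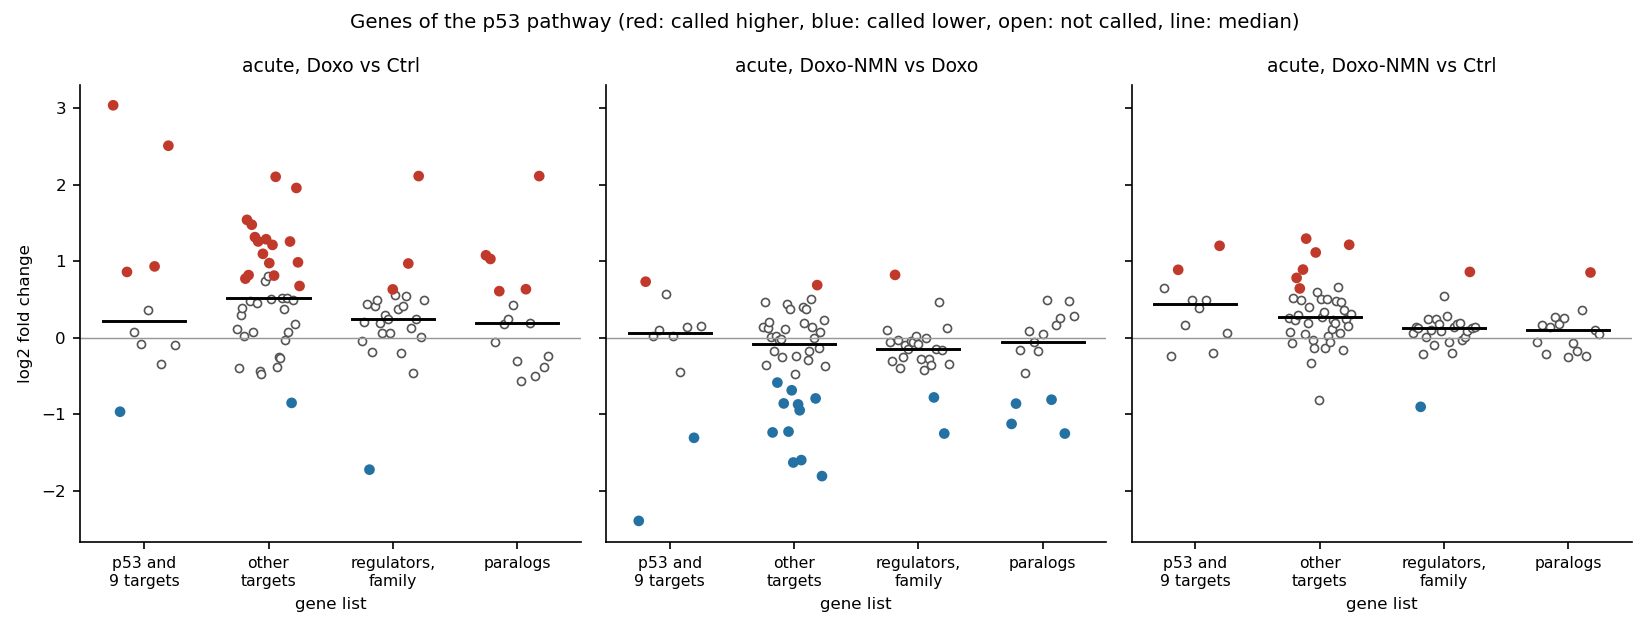
Log2 fold changes of the genes of the 10-gene group and of the 3 lists in the acute study, by comparison, with 1 point a gene, filled red or blue where called higher or lower, and a line at each median. The medians for Doxo vs. Ctrl are 0.21 for the 10 genes, 0.51 for further targets, 0.24 for regulators and relatives and 0.19 for paralogs.

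Since MDM2 is both a target and the inhibitor of p53, the level of *Mdm2* was correlated with each of the other 9 genes within each acute group, which gave 27 relations on log2 CPM. With *Ccng1* in Doxo-NMN hearts Pearson's r was 0.786 (n = 13, permutation p = 0.00121, Benjamini-Hochberg adjusted p = 0.0327) and Spearman's rho 0.626 (permutation p = 0.0250, adjusted p = 0.135). Without the 2 hearts farthest from the median of *Mdm2*, r was 0.559 and no longer passed (permutation test, adjusted p = 0.230). No other relation passed by Pearson's r and none passed by Spearman's rho. The next strongest were *Ccng1* in Ctrl hearts (r = 0.674, rho = 0.670, n = 14, permutation test, adjusted p = 0.106 and 0.130), *Sesn1* in Doxo-NMN hearts (r = -0.640, rho = -0.467, n = 13, permutation test, adjusted p = 0.144 and 0.308) and *Sesn2* in Doxo hearts (r = -0.630, rho = -0.692, n = 13, permutation test, adjusted p = 0.144 and 0.130).

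Over all genes tested, those whose levels within the acute groups followed the mean of the 9 targets most closely were *Lca5*, *Rc3h2*, *Rest*, *Stk17b* and *Arl5b*. Likeness was the mean of Pearson's r over the 3 groups (40 hearts), and it was 0.58, 0.56, 0.52, 0.52 and 0.51. These are descriptions over hearts that differ in library depth and tissue makeup, and the part of either was not tested. No gene reached a likeness of 0.6.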

How the data were processed

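Poly(A) RNA from mouse hearts was sequenced as single-end reads. The authors mapped the reads by STAR and made gene counts by featureCounts (versions 2.7.3a and 2.0.0 and build mm10 in the submitters' processing notes), and deposited raw counts per gene and heart in 1 table for each study. The strand setting of the counting is not given in the sources used here. In the median acute heart 73.6% of counts from 1 to 20 were even, against 40.3% in the chronic table; the cause was not tested.

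Counts were fitted with edgeR 4.0.16 (R 4.3.3): TMM factors, filterByExpr by group, and the quasi-likelihood test on the 3 groups of a study in 1 fit, with Benjamini-Hochberg adjustment over all genes tested. The interaction was fitted on both tables. The SE is the log2 change divided by the square root of F. Levels per length used GENCODE M21 exon lengths. Log2 CPM used a prior count of 2, and correlations used 100000 permutations. DESeq2 1.42.0 and limma 3.58.1 were alternatives, and the fits were tested on simulated data.

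Groups came from the sample labels. The members and lists were chosen with earlier results of these data known. Named genes were all members, *Cdkn1a*, *Bax*, *Bbc3*, *Gdf15*, *Mdm4*, *Sesn3*, *Btg1*, *Ccng2* and *Trp53inp2*, the 4 called genes of each list with the largest acute Doxo vs. Ctrl change, and the 5 genes most like the mean of the 9 targets. Each sample is labelled as 1 heart, so p-values measure the spread between hearts. The lowest chi-square per gene between hearts of a group was 10.36 (acute) and 5.487 (chronic), so no library was counted as deposited more than once. A *Trp53* pseudogene (*Trp53-ps*) had at most 6 counts, and genes overlapping *Sesn1* and *Sesn2* had at most 2 and 3 in the chronic table.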

Additional observations from a re-analysis of the deposited data

Results flagged for a closer look

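Of 30 sets of chronic hearts, 1 for each gene and group, 6 held a heart whose gap to the rest exceeded the 95% critical value of Dixon's test, where chance gives about 1 in 20. The 6 came from 2 hearts. Doxo replicate 2 was lowest for *Trp53* (11.8 CPM, the others 20.5 to 25.04) and *Mdm2* (43.7 CPM, the others 52.03 to 55.8), and highest for *Sesn1* (353 CPM, the others 78.5 to 99.1) and *Trp53inp1* (28.2 CPM, the others 7.82 to 9.66). Ctrl replicate 1 was highest for *Trp53* (33.7 CPM, the others 21.02 to 24.4) and *Phlda3* (28.2 CPM, the others 14.4 to 18.2).

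The effect of Doxo differed between acute and chronic hearts, by the interaction test, for *Btg2* (2.62 on the log2 scale), *Trp53inp1* (1.88), *Sesn2* (1.05) and *Eda2r* (1.04), the acute effect being the higher in each. With a replicate block *Eda2r* no longer passed (0.98, adjusted p = 0.0630 by edgeR's quasi-likelihood test).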

How the results depend on the processing

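The members called in acute Doxo vs. Ctrl were 5 under every alternative but those without a fold limit (7) or in hearts with 100 CPM or more of *Myl4* (6). Without a fold limit, members called were 5 in Doxo-NMN vs. Doxo (from 3) and 5 in Doxo-NMN vs. Ctrl (from 2). With that change, the further targets called in the 3 acute comparisons were 31, 24 and 16, the regulators 20, 12 and 10, and the paralogs 12, 7 and 3. Requiring 10 counts in every heart gave 2, 1 and 0 regulators, 0 paralogs in Doxo-NMN vs. Ctrl and 1 paralog in the interaction. In Doxo-NMN vs. Ctrl, hearts under 100 CPM of *Myl4* gave 2 further targets, 1 regulator and 0 paralogs, and those at 100 or more gave 0 and 0 of the last 2 lists. These fits hold fewer hearts. Leaving out each heart gave 3 to 6 paralogs in Doxo vs. Ctrl, 1 to 2 regulators and 0 to 1 paralogs in Doxo-NMN vs. Ctrl (lowest without Doxo-NMN replicate 10), and in the interaction 7 to 17 further targets, 3 to 10 regulators and 1 to 5 paralogs. The *Mdm2* relations passing were 0 without the 2 farthest hearts.

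Replicate numbers did not pair hearts: 18 of 39 acute and 4 of 15 chronic same-numbered pairs correlated above 0.1, and 4 of 39 and 1 of 15 hearts correlated best with their own number. With a replicate block the interaction calls were 3 members, 6 further targets, 1 regulator and 0 paralogs, *Eda2r* being the member lost (0.98, adjusted p = 0.0630 by edgeR's quasi-likelihood test), *Cdkn1a* in chronic Doxo-NMN vs. Ctrl became -0.061, and no other count of calls moved by over 1.5 times.

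The log2 changes that reversed were all uncalled; the cause was not tested. With limma-voom they were *Gdf15* acute Doxo vs. Ctrl -0.12, *Sesn1* acute -0.15 and chronic 0.10 and *Trp53* chronic -0.065 in Doxo-NMN vs. Doxo, *Phlda3* 0.17 and *Eda2r* 0.16 in chronic Doxo vs. Ctrl, and *Zmat3* -0.0040 in chronic Doxo-NMN vs. Ctrl. Without the low-count filter *Bbc3* was -0.0039 in acute Doxo vs. Ctrl. In acute hearts under 100 CPM of *Myl4*, *Phlda3* was 0.12 and *Bbc3* -0.18 (Doxo vs. Ctrl), *Eda2r* -0.18, *Sesn3* -0.040 and *Ppp1r13l* 0.045 (Doxo-NMN vs. Doxo) and *Tnfrsf10b* -0.034 (Doxo-NMN vs. Ctrl). In those at 100 or more, *Gdf15* was -0.22 and *Ccng2* 0.089 (Doxo vs. Ctrl), and *Sesn1* -0.32 and *Bbc3* -0.12 (Doxo-NMN vs. Doxo). *Zmat3* in the interaction was 0.020 by DESeq2, 0.020 by RLE factors and 0.0041 with 10 counts in every heart.

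Leaving out each heart spanned 0 for *Bbc3* (-0.069 to 0.098) in acute Doxo vs. Ctrl, *Eda2r* (-0.036 to 0.20) and *Sesn1* (-0.055 to 0.096) in acute Doxo-NMN vs. Doxo, and *Phlda3* (-0.19 to 0.079), *Eda2r* (-0.28 to 0.021) and *Sesn2* (-0.21 to 0.00047) in chronic Doxo vs. Ctrl. It did so for *Trp53* (-0.022 to 0.15), *Ccng1* (-0.0093 to 0.14), *Btg2* (-0.28 to 0.21) and *Sesn1* (-0.59 to 0.10) in chronic Doxo-NMN vs. Doxo, *Sesn1* (-0.011 to 0.23), *Sesn2* (-0.15 to 0.056), *Zmat3* (-0.067 to 0.087) and *Cdkn1a* (-0.074 to 0.096) in chronic Doxo-NMN vs. Ctrl, and *Phlda3* (-0.16 to 0.10), *Sesn1* (-0.36 to 0.35) and *Zmat3* (-0.089 to 0.078) in the interaction. Halving the acute counts, an alternative chosen after seeing the data, left 5, 3 and 2 members called.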

Other observations

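Chosen after seeing the data, all 135 pairs of the 10 genes within the acute groups were correlated on log2 CPM, and 6 passed by Pearson's r and 6 by Spearman's rho (permutation tests, Benjamini-Hochberg adjusted p under 0.05). The 2 farthest hearts below are those farthest from the median of the gene named first in a pair. In Ctrl hearts *Eda2r* and *Trp53inp1* ran opposite (r = -0.910, rho = -0.896, n = 14, permutation test, adjusted p = 0.00405 and 0.00270, r = -0.877 without the 2 farthest hearts). In Doxo hearts *Ccng1* fell as *Btg2* rose (r = -0.867, rho = -0.802, n = 13, permutation test, adjusted p = 0.00405 and 0.0486), and r was -0.685 without the 2 farthest hearts. *Btg2* and *Trp53inp1* ran together there (r = 0.879, rho = 0.791, n = 13, permutation test, adjusted p = 0.0101 and 0.0486), and r was 0.586 without the 2 farthest hearts. *Eda2r* and *Sesn2* in Doxo hearts had r = 0.900 and rho = 0.522 (n = 13, permutation test, adjusted p = 0.0170 and 0.309), and r was 0.450 without the 2 farthest hearts. *Ccng1* and *Trp53inp1* in Doxo hearts passed by r alone (r = -0.881, rho = -0.769, permutation test, adjusted p = 0.00585 and 0.0588), as did *Mdm2* and *Ccng1* in Doxo-NMN hearts. Passing by rho alone were *Ccng1* and *Sesn1* (0.767) and *Phlda3* and *Sesn1* (-0.798) in Ctrl hearts, and *Btg2* and *Sesn2* (0.791) in Doxo hearts (permutation test, adjusted p = 0.0486 each).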
